A study of Mus musculus with 9 samples.

Results

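The p200 family and Aim2 were described in kidneys of wild-type (WT) mice and of Trex1-/- mice, which lack the exonuclease that degrades DNA in the cytosol. The members are 10 genes listed by symbol, Ifi202b, Ifi203, Ifi204, Ifi205, Ifi207, Ifi208, Ifi209, Ifi211, Mndal and Aim2, and all 10 were found among the 54532 gene identifiers of the count files. PolyA RNA of kidney was sequenced in 9 libraries, 3 of each group: WT, Trex1-/- given the PBS-based vehicle (KO), and Trex1-/- given SN-011 (KO_SN011). SN-011 blocks STING, which relays the signal of the cytosolic DNA sensor cGAS to the induction of interferon. The comparisons ask how the loss of Trex1 and the antagonist bear on these genes.

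All mice were of the C57BL/6J strain. By the methods of the study, the Trex1-/- mice were bred from Trex1+/- crosses and were injected daily from 1 month of age for 2 weeks, with 10 mg/kg SN-011 or with vehicle. The WT mice were purchased at 4 to 8 weeks of age, so genotype, age and source of the animals cannot be told apart in comparisons with WT. The Trex1-/- genotype is germline and shared by the treated and the vehicle mice. No treatment is given for WT and no sex for any group.

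Library totals ran from 16118813 to 21928965 counts. No read was assigned to Trex1 in any of the 9 libraries, WT included, so the counts do not check the genotype, which rests on the labels. Markers of kidney were present in every library, among them Umod of the thick ascending limb, at 5839 ± 267 counts scaled to library size (CPM) in WT (SD, n = 3). Reads of Y-linked genes (153 to 188 CPM in sum) were found in all 3 KO libraries, in WT replicate 3 and in KO_SN011 replicate 2, while the other 4 libraries held Xist at 434 to 503 CPM. A fit with a term for Y-linked reads was therefore also made, and its values are given beside the calls of members that it changed.

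The p200 proteins, also called PYHIN proteins, join a pyrin domain, which binds other pyrin domains, to HIN domains, which bind DNA. AIM2 senses DNA in the cytosol and recruits the adaptor ASC (Pycard) to activate caspase-1, whose targets include gasdermin D and the precursors of interleukin-1β and interleukin-18. IFI204 has been linked to the STING pathway, p205 to the transcription of Pycard, and p202, the product of Ifi202b, which has HIN domains and no pyrin domain, to the inhibition of AIM2. Type I interferon drives many of these genes through the interferon-stimulated response element (ISRE), a short promoter sequence.

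The family lies in 1 cluster on chromosome 1. In the GENCODE vM21 annotation of GRCm38 it ran from Aim2 at chr1:173350879-173466040 to Ifi205 at chr1:174011998-174031810, a span of 0.681 Mb. Ifi206, Ifi213, Ifi214 and the pseudogene Ifi203-ps are further PYHIN genes in this span that are not among the 10 members. Mndal (chr1:173849126-173942491) spans Ifi211 (chr1:173896345-173913046) and most of Ifi203 (chr1:173920407-173942672) on the same strand. Of the exonic bases of Mndal, 4.27% also belong to exons of Ifi203 or Gm38050.

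**Figure D1:**
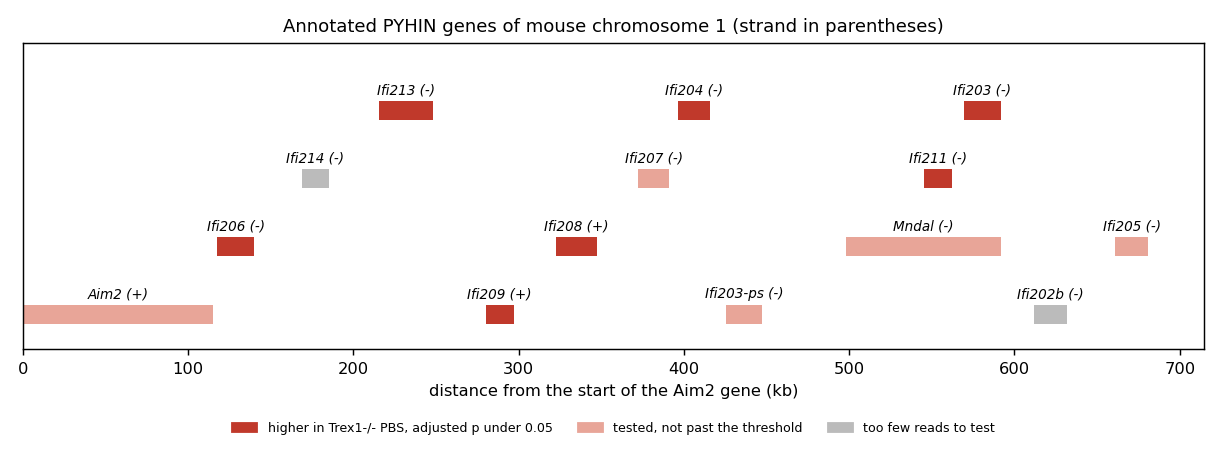
The PYHIN genes of the chromosome 1 cluster are drawn as bars against the distance from the start of the Aim2 gene in kb, with the strand in parentheses and rows used only to keep names apart. Genes higher in KO than in WT by edgeR's quasi-likelihood test stand along the cluster (dark red), with tested genes not past the threshold in light red and Ifi202b and Ifi214, with too few reads, in grey.

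RefSeq promoter windows, from 250 bases before to 50 bases after an annotated start (build GRCm38.p6), were given for 9 of the 10 members and for Ifi206, Ifi213 and Ifi214. The ISRE core was searched as GAAANNGAAA on both strands. It was present in the windows of 6 members, Ifi203, Ifi205, Ifi207, Ifi208, Ifi211 and Mndal, and of all 3 further genes. Of all 27025 genes with a window, 3.99% held it. Stretches of 60 bases are shown for these genes because they place the shared letters beside the start site. The strand is that of the gene, and capitals mark the ISRE core.

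Ifi203 (chr1:173942493-173942552, minus strand): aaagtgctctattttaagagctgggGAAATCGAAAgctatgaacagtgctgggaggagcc
Mndal (chr1:173880189-173880248, minus strand): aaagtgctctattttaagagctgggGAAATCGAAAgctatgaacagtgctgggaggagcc
Ifi207 (chr1:173741816-173741875, minus strand): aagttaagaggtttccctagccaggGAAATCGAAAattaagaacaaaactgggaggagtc
Ifi211 (chr1:173913049-173913108, minus strand): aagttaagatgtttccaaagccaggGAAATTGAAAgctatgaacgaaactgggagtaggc
Ifi205 (chr1:174031855-174031914, minus strand): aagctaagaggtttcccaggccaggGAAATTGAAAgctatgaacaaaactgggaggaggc
Ifi208 (chr1:173673582-173673641, plus strand): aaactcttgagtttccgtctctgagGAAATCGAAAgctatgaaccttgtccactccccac
Ifi213 (chr1:173599311-173599370, minus strand): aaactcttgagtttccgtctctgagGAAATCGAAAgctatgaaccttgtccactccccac
Ifi206 (chr1:173491324-173491383, minus strand): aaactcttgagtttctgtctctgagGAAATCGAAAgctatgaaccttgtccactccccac
Ifi214 (chr1:173536002-173536061, minus strand): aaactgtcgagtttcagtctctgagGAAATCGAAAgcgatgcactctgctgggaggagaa

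The stretches of Ifi203 and Mndal were identical over 60 of 60 bases, as were those of Ifi208 and Ifi213, and Ifi206 shared 59 of 60 with these latter genes. Ifi205 and Ifi211 shared 54 of 60. The full letters GAAATCGAAA stood in 7 of the genes, Ifi203, Mndal, Ifi207, Ifi208, Ifi206, Ifi213 and Ifi214, and in 16 of all 27025 genes (0.0592%). GAAATTGAAA stood in Ifi205 and Ifi211 and in 37 of all genes (0.137%). The first base of the printed match lay 79 to 35 bases before the start, except in Ifi205, where it lay at -134. Matches on the opposite strand were also found at 24 bases after the start of Ifi205 and, in the window of another annotated start of Mndal, at -54. The window of another annotated start of Ifi203 held no match. The first 30 bases after the RefSeq start were not found in a GENCODE transcript for this other start of Ifi203. The same held for Ifi206, Ifi207, Ifi208, Ifi209 and Ifi202b.

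Ifi209 held the core with 1 mismatch, G1T, counted from the first base of the core, at -79, in a stretch that shared 54 of 60 bases with that of Ifi214.

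Ifi209 (chr1:173630755-173630814, plus strand): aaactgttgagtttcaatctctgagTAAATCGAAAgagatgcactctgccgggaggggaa

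With 1 mismatch allowed, 38.9% of all genes held the core. The windows of Aim2 and Ifi202b held none without a mismatch. The interferon-gamma activated site (GAS), searched as TTCNNNGAA, was found in the window of Ifi202b alone among these genes, and in 9.55% of all genes. For Ifi204 no window was given.

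**Figure D2:**
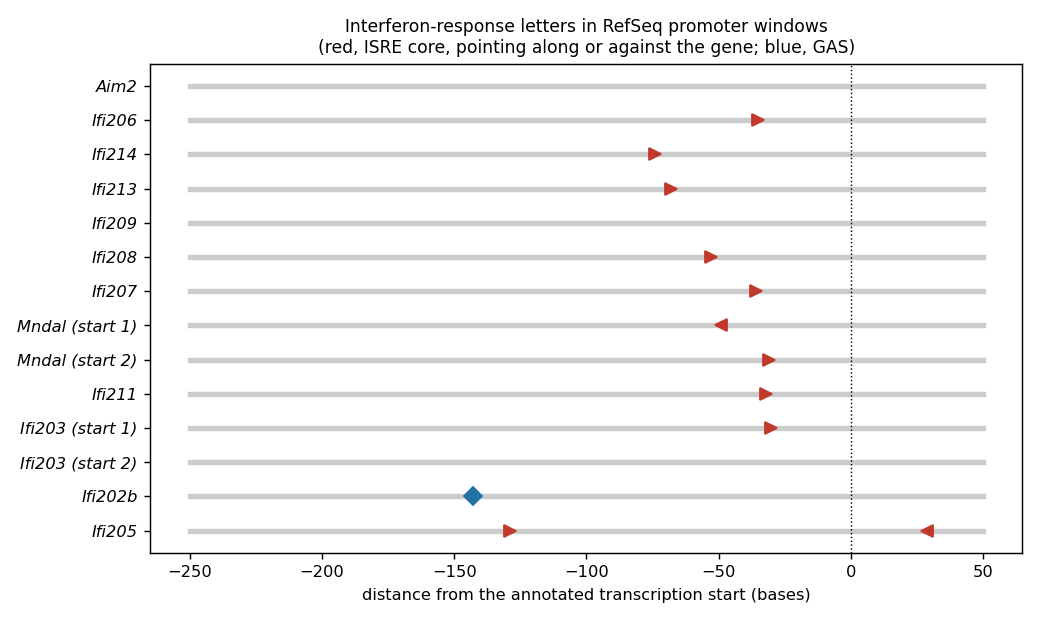
Matches to the ISRE core (red triangles, pointing along or against the gene) and to GAS (blue diamond) are plotted against the distance in bases from the annotated start, with 1 grey line per promoter window. Matches pointing along the gene stand between -79 and -26 in 8 of the 9 genes that have one, and Ifi205 is the exception.

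Levels were compared between members as CPM per kb of annotated exon. In WT, Mndal was highest at 4.28 ± 0.463 CPM per kb, followed by Ifi203 at 2.90 ± 0.185 and Ifi204 at 1.5 ± 0.302 (SD, n = 3), and the libraries of these neighbours in the order did not overlap. Ifi207 (1.09 ± 0.352), Ifi211 (0.861 ± 0.231), Ifi208 (0.553 ± 0.123) and Ifi209 (0.545 ± 0.236) formed a run in which each overlapped the next. Aim2 at 0.234 ± 0.0609 and Ifi205 at 0.0762 ± 0.0625 CPM per kb were lowest among the members with reads. In KO, Mndal remained highest at 7.95 ± 0.582, while Ifi204 (5.48 ± 0.860) and Ifi203 (5.46 ± 0.677) overlapped, as did Ifi203 and Ifi211 (4.19 ± 1.09). In KO_SN011 the libraries of Mndal (7.12 ± 2.47), Ifi203 (5.19 ± 1.16) and Ifi204 (3.73 ± 1.2) overlapped from each to the next. Aim2 and Ifi205 stayed lowest, at 0.444 ± 0.0620 and 0.389 ± 0.0633 in KO. Paralogous exons limit this order: of the 150-base windows along its transcripts, 46.4% of those of Ifi211 are also found in transcripts of Ifi204, Ifi205 or Mndal, against 12.6% for Ifi205, 9.28% for Ifi209, 6.77% for Ifi204 and under 2% for Ifi203, Mndal and Ifi208. Reads from such windows may be left out, since the authors counted uniquely mapped pairs.

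Ifi202b had 0 counts in all 9 libraries, which allows at most 0.136 to 0.186 CPM per library (3 counts), by counting error only. The other 9 members passed the filter on low counts. Ifi205 passed through the KO and KO_SN011 groups, with 1 WT library at or above the limit of 0.579 CPM, and 8 members passed in every group.

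Comparison of KO with WT asked how the family differed between Trex1-/- and WT kidneys. Genotype, age and source cannot be told apart here, and Y-linked reads were unevenly spread between these groups. Ifi203, Ifi204, Ifi208, Ifi209 and Ifi211 were higher in KO kidneys by edgeR's quasi-likelihood test at an adjusted p under 0.05, with changes from 1.89-fold (Ifi203) to 4.83-fold (Ifi211). Ifi205, Ifi207, Mndal and Aim2 were on the same side and did not pass. Thus 5 of 9 tested members were called higher and 0 lower, where 1.44% of the 16646 genes tested were called higher.

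Ifi204 is the mouse p200 gene most often compared with human IFI16. It had 5.23, 4.34 and 6.48 CPM in WT replicates 1 to 3 and 18.8, 22.9 and 16.9 CPM in KO, and the lowest KO library was more than 2 times the highest WT library. The log2 fold change was 1.87 (SE 0.244, edgeR adjusted p 0.0027).

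Ifi211 had 1.18, 1.99 and 1.45 CPM in WT and 8.16, 8.99 and 5.28 CPM in KO. The groups were far apart, although KO replicate 3 was lower than the other two. The log2 fold change of 2.27 (SE 0.280, edgeR adjusted p 0.00184) was the largest among the called members.

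For Ifi208, WT libraries had 2.64, 2.44 and 3.64 CPM and KO libraries had 8.4, 10.6 and 8.45 CPM, with a log2 fold change of 1.66 (SE 0.238, edgeR adjusted p 0.00492). Ifi209 ranged more widely in WT, at 1.56, 1.35 and 2.89 CPM, against 6.88, 7.82 and 5.66 CPM in KO (log2 fold change 1.83, SE 0.360, edgeR adjusted p 0.031). In both genes WT replicate 3 was the highest of its group, and no WT library reached a KO library.

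Ifi203, second to Mndal per kb of exon in WT, had 19.1, 18.3 and 20.8 CPM in WT and 35.1, 41.7 and 33.1 CPM in KO. Its log2 fold change was 0.92 (SE 0.159, edgeR adjusted p 0.015), so this abundant gene had the smallest change of the called members. Mndal had 16.1, 13.6 and 16.8 CPM in WT and 26.5, 30.6 and 29.4 CPM in KO. Its log2 fold change of 0.89 (SE 0.213) did not pass the threshold (edgeR adjusted p 0.0688), although the groups did not overlap. The Y-linked term moved the change of Mndal to 0.57 (edgeR adjusted p 0.288).

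Ifi207 had 3.63, 2.57 and 4.98 CPM in WT and 9.99, 12.4 and 10.1 CPM in KO (log2 fold change 1.55, SE 0.358, edgeR adjusted p 0.0628), a change that the Y-linked term moved to 0.94. Ifi205, the gene whose product has been linked to Pycard, had only 13, 5 and 2 counts in WT and 25, 33 and 23 counts in KO. Its log2 fold change of 2.30 had the widest interval of the members, 1.06 to 3.54, and an edgeR adjusted p of 0.0746. Without WT replicate 1, which held most of its WT reads, the change was 3.15, and that of KO_SN011 against WT moved from 1.81 to 2.67.

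Aim2, the inflammasome sensor, was a low transcript throughout. It had 0.613, 1.04 and 0.810 CPM in WT and 1.4, 1.46 and 1.80 CPM in KO, from 13 to 29 counts per library. KO libraries were all above WT libraries, but the log2 fold change of 0.91 (95% interval 0.15 to 1.68) had an edgeR adjusted p of 0.248 and passed in 0 of 17 alternative settings.

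KO and WT did not overlap in any of the 8 members that passed the filter in every group, where 13.1% of all tested genes were higher in KO without overlap. Their median log2 fold change was 1.61, against 0.00 over all genes tested. The sum over the 10 members was 50.7, 45.9 and 58.0 CPM in WT and 117, 138 and 112 CPM in KO.

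**Figure D3:**
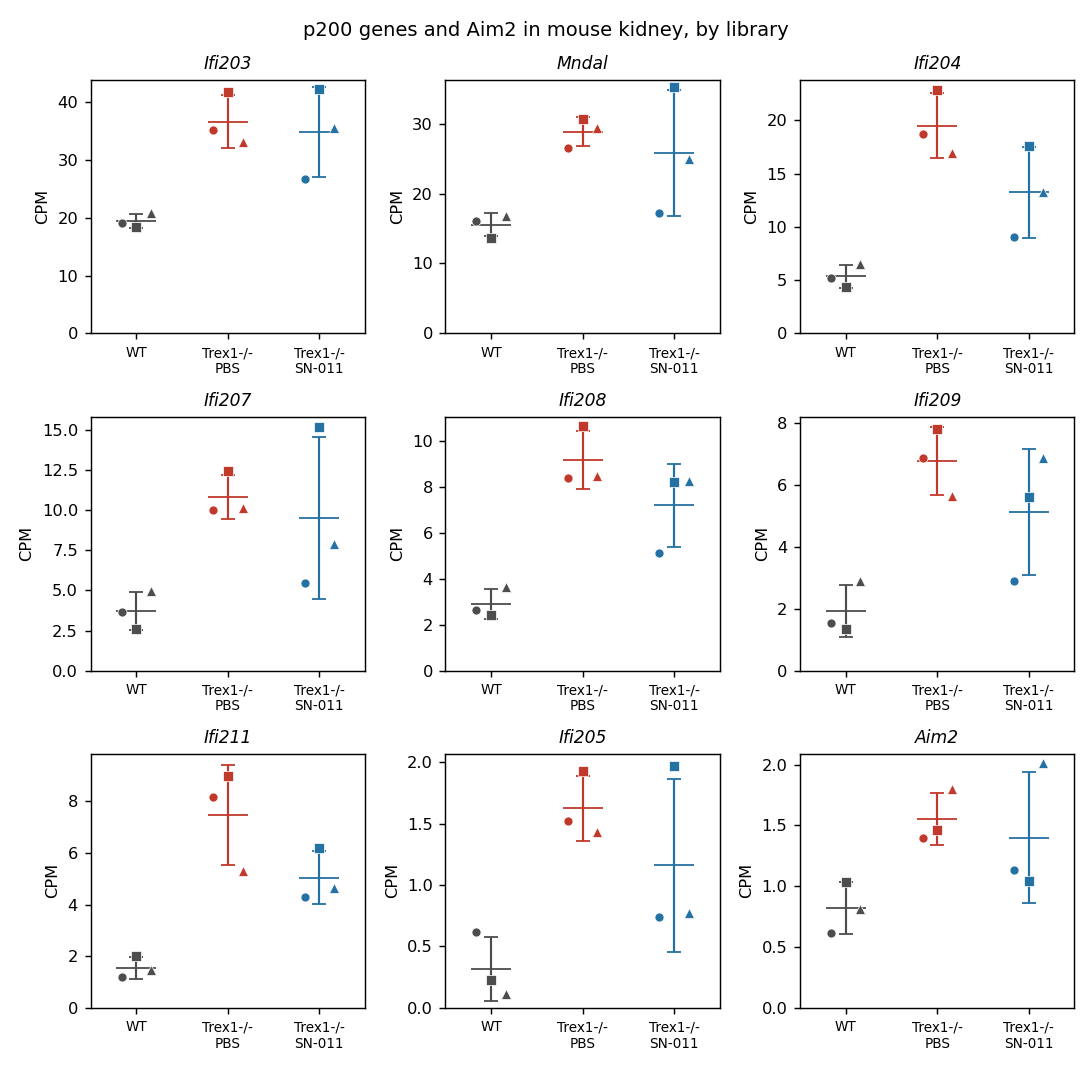
CPM of the 9 members with reads is plotted for each library, with replicates 1, 2 and 3 as circle, square and triangle, and horizontal bars and whiskers for the group mean and SD (n = 3). The KO libraries (red) lie above the WT libraries (grey) in all 9 panels, and KO_SN011 replicate 1 (blue circle) is the lowest of its group in 8 of them.

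With the Y-linked term, 3 members remained called, Ifi204 (log2 fold change 1.51), Ifi208 (1.41) and Ifi211 (2.11), where 0.907% of genes were called higher, and Ifi203 (0.71, edgeR adjusted p 0.0791) and Ifi209 (1.5, edgeR adjusted p 0.115) were not. Ifi204, Ifi208 and Ifi211 passed in all 17 alternatives. Leaving out WT replicate 1, WT replicate 2, KO replicate 1 or KO replicate 2 likewise left 3 members called, of 153 to 162 genes called in all, while 8 members of 774 genes were called without KO_SN011 replicate 2, against 5 of 313 with all libraries. Among the libraries with Y-linked reads alone, 3 of KO and 1 of WT, the log2 ratios of mean CPM were 1.59 for Ifi204, 1.33 for Ifi208, 2.37 for Ifi211, 0.82 for Ifi203 and 1.23 for Ifi209, with no test.

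The further PYHIN genes of the cluster were on the same side. Ifi206 had 0.990, 1.85 and 1.39 CPM in WT and 8.89, 13.2 and 7.33 CPM in KO, the largest fitted change of the cluster at 6.91-fold (edgeR adjusted p 0.00225). Ifi213 had 4.95, 3.70 and 3.76 CPM in WT and 18.1, 21.4 and 19.7 CPM in KO, a 4.76-fold change (edgeR adjusted p 0.000627). Both remained called in all 17 alternatives. The pseudogene Ifi203-ps differed by 1.15 on the log2 scale and did not pass (edgeR adjusted p 0.132). Ifi214 was not tested, with 2, 1 and 1 counts in WT and 6, 9 and 12 counts in KO. Of the 3 nearest protein-coding genes outside the family on each side, Mptx2, Olfr433, Olfr432 and Olfr430 had no counts in any library, and Cadm3 and Ackr1 had 57 and 16 counts over all 9 libraries, too few to test.

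Comparison of KO_SN011 with KO addressed the effect of the STING antagonist. By edgeR's quasi-likelihood test, 0 members were called. It called 0 of the 16646 genes (0% lower), with 1905 genes and 1 member, Ifi204, at an unadjusted p under 0.05. DESeq2's Wald test called 183 genes (0.648% of the genes it tested were called lower), and edgeR's exact test called 124, with 0 members in each.

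Ifi204 and Ifi211 had the largest differences of the members. KO_SN011 libraries had 9.01, 17.6 and 13.2 CPM of Ifi204, against 16.9 to 22.9 CPM in KO, and the log2 fold change was -0.56 (95% interval -1.07 to -0.04, edgeR adjusted p 0.405). For Ifi211, KO_SN011 libraries had 4.31, 6.20 and 4.63 CPM, against 5.28 to 8.99 CPM in KO, with a log2 fold change of -0.57 (interval -1.14 to 0.00, edgeR adjusted p 0.438). In both genes the groups overlapped through KO_SN011 replicate 2.

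Ifi208 was the only tested member whose KO_SN011 libraries, at 5.10, 8.23 and 8.25 CPM, all lay below those of KO, the lowest of which had 8.4 CPM. This separation was narrow (log2 fold change -0.35, interval -0.85 to 0.15), and 8.41% of all tested genes were lower without overlap. Ifi209 (2.89, 5.62 and 6.89 CPM in KO_SN011) differed from KO by -0.40 (interval -1.15 to 0.34). With the Y-linked term the differences were -0.09 for Ifi208 and -0.04 for Ifi209. Without KO_SN011 replicates 1, 2 and 3 in turn, Ifi208 was at -0.15, -0.46 and -0.45 and Ifi209 at -0.12, -0.48 and -0.67.

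In Ifi203, KO_SN011 libraries had 26.7, 42.3 and 35.4 CPM, so that replicate 2 exceeded every KO library. The log2 fold change of -0.07 had an interval of -0.42 to 0.28. Mndal had 17.3, 35.2 and 25 CPM (log2 fold change -0.16, interval -0.62 to 0.31) and Ifi207 had 5.44, 15.2 and 7.89 CPM (-0.19, interval -0.95 to 0.56), in both cases again with replicate 2 above every KO library.

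The low members were less precise. Ifi205 had 0.737, 1.97 and 0.772 CPM in KO_SN011 (log2 fold change -0.49, interval -1.57 to 0.60). Without KO_SN011 replicates 1, 2 and 3 in turn the change was -0.24, -1.11 and -0.26, and with the Y-linked term it was -0.20. Aim2 had 1.13, 1.04 and 2.02 CPM (-0.15, interval -0.89 to 0.59). For Ifi205, Ifi207 and Aim2 the intervals include changes of 0.5 on the log2 scale in either direction.

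**Figure D4:**
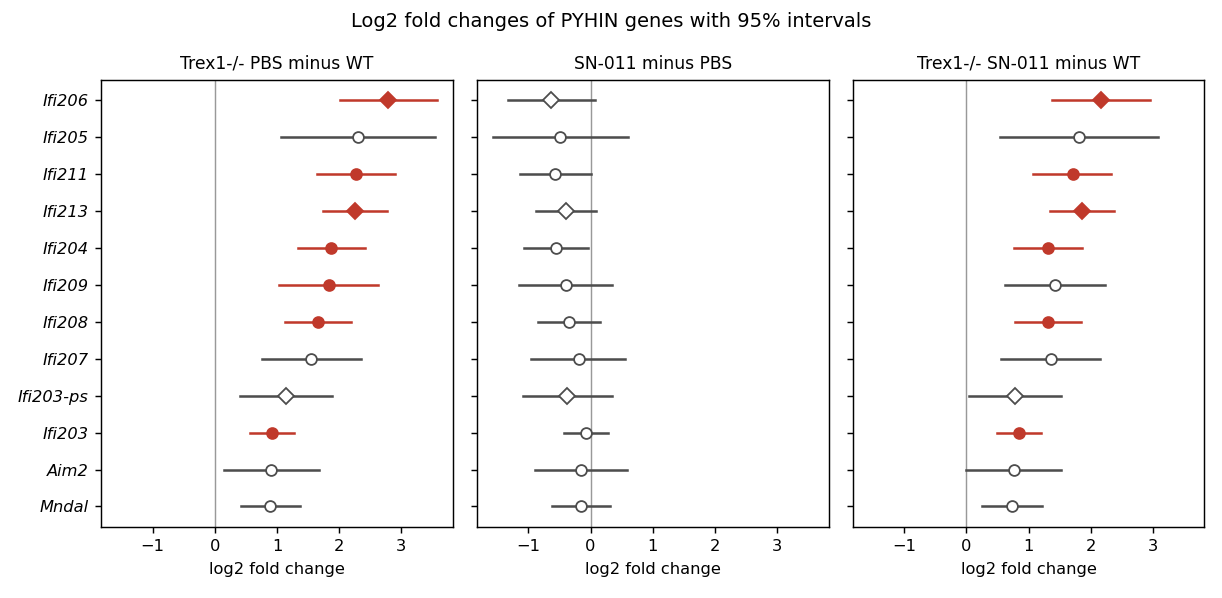
Log2 fold changes with 95% intervals from edgeR's quasi-likelihood fit are shown for 9 members (circles) and 3 further PYHIN genes (diamonds) in the 3 comparisons, filled red where the adjusted p was under 0.05. Every point lies above 0 in both comparisons with WT, and all points of SN-011 minus PBS lie between -0.63 and -0.07, none past the threshold.

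The KO_SN011 libraries stood apart from each other more than those of the other groups. Replicate 1 was below every KO library in 9 of 9 tested members, replicate 2 in 3 and replicate 3 in 6, and replicate 2 was above every KO library in 4. These counts include Ifi205, which passed the filter through KO and KO_SN011. How many of all tested genes were so placed was not counted, so the counts cannot be read as particular to the family. The members summed to 72.6, 133 and 104 CPM in KO_SN011 replicates 1, 2 and 3. Replicate 2 was the library of this group with Y-linked reads, and with the Y-linked term Ifi203, Ifi207 and Mndal were 0.12, 0.35 and 0.12 higher in KO_SN011 than in KO on the log2 scale, with Ifi204 at -0.22 (edgeR adjusted p 0.793). Without replicate 1, Ifi203, Ifi207 and Mndal were likewise on the higher side, by 0.09, 0.09 and 0.06. Ifi204 was at -0.34, -0.82 and -0.55 without replicates 1, 2 and 3 in turn, and was not called in any of these fits.

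Comparison of KO_SN011 with WT asked whether the family stayed raised under the antagonist. Ifi203, Ifi204, Ifi208 and Ifi211 were higher in KO_SN011, 4 of 9 tested members, where 0.823% of all tested genes were called higher. The changes were 1.79-fold for Ifi203 (edgeR adjusted p 0.0366), 2.49-fold for Ifi204 (0.0334), 2.48-fold for Ifi208 (0.0308) and 3.26-fold for Ifi211 (0.0209). None of the 4 was called in a fit of the KO_SN011 and WT libraries only (edgeR adjusted p 0.114, 0.121, 0.121 and 0.071). This comparison shares its WT libraries with that of KO against WT, and the one of KO_SN011 with KO shares both others' libraries.

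The lowest KO_SN011 library of Ifi204, replicate 1 at 9.01 CPM, was above the highest WT library at 6.48 CPM, and that of Ifi211 at 4.31 CPM was above 1.99 CPM. For Mndal, by contrast, replicate 1 at 17.3 CPM was close to the highest WT library at 16.8 CPM, and for Ifi209 replicate 1 did not exceed WT replicate 3, both at 2.89 CPM. Of the 8 members that passed the filter in every group, 7 did not overlap, where 11.8% of all genes were higher without overlap.

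Ifi205 (log2 fold change 1.81, edgeR adjusted p 0.145), Ifi207 (1.36, 0.0926), Ifi209 (1.42, 0.0879), Mndal (0.73, 0.118) and Aim2 (0.76, 0.285) were not called. These changes moved when KO_SN011 replicates 1, 2 and 3 were left out in turn. Ifi205 was then at 2.05, 1.19 and 2.03, Ifi207 at 1.64, 0.84 and 1.48, and Aim2 at 0.89, 0.92 and 0.40. With the Y-linked term, 7 members were called, where 2.03% of genes were, as Ifi207 (1.28), Ifi209 (1.46) and Mndal (0.69) were added to the 4. The count turned on single libraries, as 0 members were called without WT replicate 1 or without WT replicate 2 (38 and 48 genes called in all, against 213 with all libraries), 1 without each KO library or KO_SN011 replicate 3, and 7 without KO_SN011 replicate 1. Among the libraries with Xist, 2 in each group, the log2 ratios of mean CPM were 1.22 for Ifi204, 1.39 for Ifi208, 1.5 for Ifi211 and 0.73 for Ifi203. Ifi206 (4.47-fold, edgeR adjusted p 0.0206) and Ifi213 (3.63-fold, edgeR adjusted p 0.0066) were also higher in KO_SN011 than in WT, Ifi206 not in a fit of these libraries only (edgeR adjusted p 0.0711) nor without WT replicate 1 (0.0978) or WT replicate 2 (0.0545).

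Promoter letters and changes were set side by side as a description. The 6 members with an ISRE core in the window had log2 fold changes in KO against WT from 0.89 (Mndal) to 2.30 (Ifi205, with 2 to 13 counts per WT library), the same range as the 9 tested members. Ifi203 and Mndal, whose printed stretches are identical, changed by 0.92 and 0.89, and Ifi208 and Ifi213, likewise identical, by 1.66 and 2.25. Ifi209, with a mismatch, changed by 1.83, and Aim2, with no match in these letters, by 0.91.

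Across the 9 libraries the members varied together. Pearson's r of log2 CPM ran from 0.736 to 0.986 (Ifi204 with Ifi208) over the 28 pairs without Aim2 and from 0.495 to 0.771 over the 8 pairs with Aim2, which had the fewest counts after Ifi205. These values are descriptions, since the libraries share group differences and scaling. Of 14830 genes with a mean of at least 1 CPM outside the PYHIN genes, the 5 most like the mean member profile were Gm4951 (r = 0.991), Nlrc5 (0.989), Gbp2 (0.988), Iigp1 (0.988) and Gm4841 (0.986). Nlrc5 is a transactivator of MHC class I genes, Gbp2 is a guanylate-binding protein and Iigp1 is an immunity-related GTPase. Gbp2 had a mean of 17.3 CPM in WT, 63.4 in KO and 44.3 in KO_SN011.

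The partners of AIM2 were examined as a list of 12 inflammasome genes, of which 11 were tested. Over all tested genes, 1.44% were called higher in KO than in WT. In KO, 2 were higher, Casp1, the inflammatory caspase, by 4.71-fold (0.913 ± 0.320 CPM in WT and 4.32 ± 0.368 in KO, edgeR adjusted p 0.00164) and Casp4, the caspase of the noncanonical inflammasome, by 3.42-fold (edgeR adjusted p 0.00244). The adaptor Pycard differed by 0.03 on the log2 scale (interval -0.33 to 0.39), Gsdmd by 0.56 (edgeR adjusted p 0.104), Il1b by 0.34 and Il18 by 0.42, and none of these passed. With SN-011 0 of 11 were called, and Casp1 had 2.48 ± 0.169 CPM, with every library below those of KO (log2 fold change -0.80, edgeR adjusted p 0.289).

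Among 16 genes of DNA sensing, 4 were higher in KO and 0 lower, where 1.44% of all tested genes were called higher. The list median was 0.19 on the log2 scale. The genes called were Samhd1, Zbp1, a sensor of left-handed nucleic acid (6.54-fold, edgeR adjusted p 0.0013), Trim30a (4.38-fold, 0.000212) and the RNA-editing enzyme Adar (2.11-fold, 0.00141). The DNA sensor Cgas differed by 1.14 (edgeR adjusted p 0.214) and Sting1, listed as Tmem173, by 0.24 (interval -0.27 to 0.75). Among 16 genes of interferon signalling, 13 were tested and 5 were higher. Irf7, the amplifying interferon regulatory factor, was 8.46-fold higher (edgeR adjusted p 0.000237) and Stat2 2.71-fold (edgeR adjusted p 0.000334), and Irf1 and Irf9 were also among those called, Irf1 not with the Y-linked term (edgeR adjusted p 0.0501). In KO_SN011 against KO, Irf7 was at -1.24 (interval -1.79 to -0.69, edgeR adjusted p 0.203) and Stat2 at -0.52, each with no overlap between the groups, as in 8.41% of all tested genes. Irf7 was called in 4 of 17 alternatives and Stat2 in 1. The median of the 13 tested interferon genes was -0.17, and that of the 8 members that passed the filter in every group was -0.27. Ifnb1 and Ifna4 had 0 counts in all 9 libraries.

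Markers of leukocytes were examined beside the family. In these bulk samples, more cells of a type and more RNA per cell cannot be told apart. In KO against WT, 1.44% of all tested genes were called higher. Of 16 myeloid markers, 5 were higher in KO than in WT and 0 lower, including Ly6c2 of monocytes (6.78-fold, edgeR adjusted p 0.00256), the Fc receptor Fcgr1 (3.23-fold, 0.00721) and C1qa of macrophages (1.92-fold, 0.0133), with a list median of 0.92. Of 12 lymphoid markers, 9 were tested and 3 were higher, Jchain of plasma cells (3.97-fold, edgeR adjusted p 0.0175), Cd3g (3.73-fold, 0.0329) and Cd4 (3.06-fold, 0.0329), with a median of 1.37. With the Y-linked term C1qa (edgeR adjusted p 0.0677), C1qb (0.177), C1qc (0.0899), Cd3g (0.155) and Cd4 (0.155) were not called, while Ly6c2 (0.0148), Fcgr1 (0.0461) and Jchain (0.0465) were. In KO_SN011 against KO, 8 of 16 myeloid markers were lower without overlap (median -0.45), as were 8.41% of all tested genes, and 0 markers were called. The summed myeloid markers ran from 207 to 253 CPM in WT, 355 to 386 in KO and 207 to 314 in KO_SN011. The lymphoid markers ran from 21.9 to 28.7, 54.5 to 65.1 and 31.7 to 72.2 CPM. In KO_SN011, replicate 1 was the lowest and replicate 2 the highest for the myeloid and lymphoid lists, as for the sum over the members. The same order held in every other list that was summed. Kidney markers had 17278, 35735 and 20601 CPM in replicates 1, 2 and 3, and endothelial markers 611, 744 and 726 CPM. The part of these cells in the result was not tested.

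**Figure D5:**
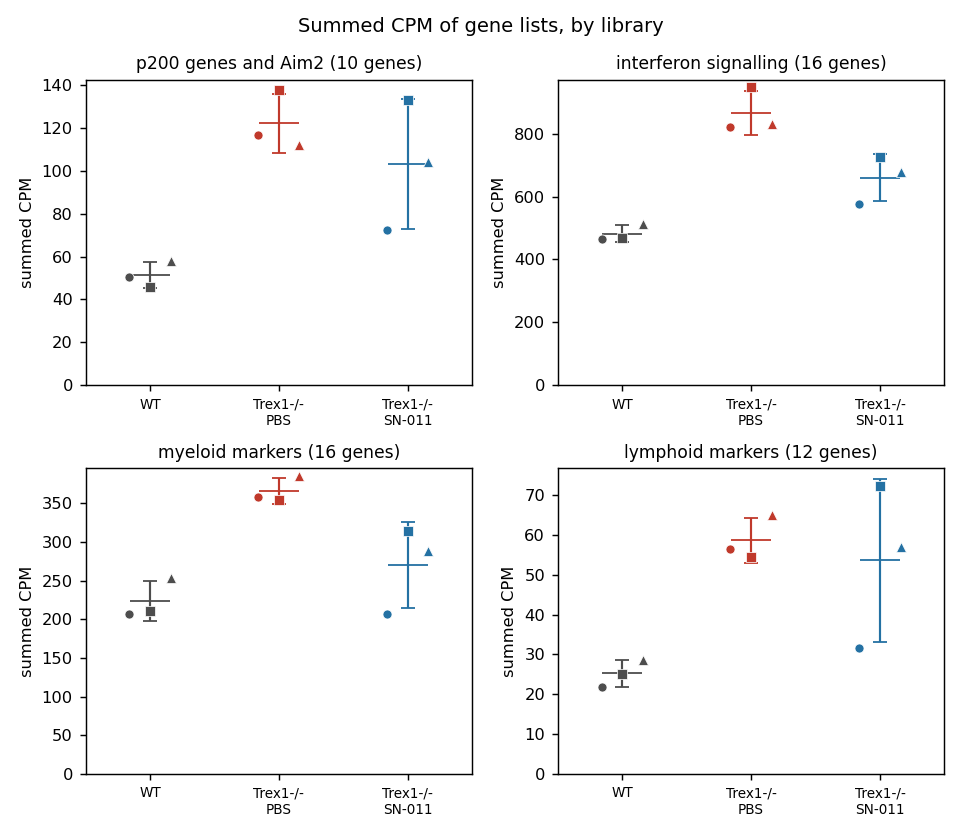
Summed CPM of 4 gene lists is plotted for each library, with replicates 1, 2 and 3 as circle, square and triangle, and the group mean and SD (n = 3) as bars and whiskers. In all 4 panels the KO libraries lie above the WT libraries, and KO_SN011 replicate 1 is the lowest of its group.

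All 16 myeloid markers were tested, so none was at 0 throughout. Of 8 dendritic cell markers, 7 were tested and 0 were called in KO against WT (median 0.13), with Cd209a at -3.12 (edgeR adjusted p 0.0808), Ccr7 at 1.43 (0.227) and Itgax at 0.59 (0.352). Siglech, of plasmacytoid dendritic cells, had reads in 7 libraries and at most 0.292 CPM. The 10 kidney markers had a median of -0.14 and the 6 endothelial markers of -0.04 in KO against WT, with 0 called in either list. Lrp2 and Slc12a1 of the nephron were at -0.41 and -0.42, Umod at -0.19, and the endothelial genes Plvap, Emcn and Kdr at -0.43, -0.20 and 0.16, none past the threshold (edgeR adjusted p 0.0688 for Plvap). In KO_SN011 against WT, 1 endothelial marker, Plvap, was called lower (log2 fold change -0.53, edgeR adjusted p 0.0383). Called higher were 1 of 16 myeloid markers (Ly6c2, 3.72-fold, edgeR adjusted p 0.0379, list median 0.45) and 1 of 9 lymphoid markers (Jchain, 4.72-fold, edgeR adjusted p 0.0185, list median 0.94). Of the 17 alternatives, Plvap was called in 8, Ly6c2 in 9 and Jchain in 14. Over all 16646 tested genes, 0.823% were called higher and 76 genes lower.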

How the data were processed

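The authors trimmed reads with Trimmomatic, aligned them with HISAT2 to mm10 and counted uniquely mapped pairs per gene with featureCounts, and the deposited values are raw counts. The versions, the annotation and the strand setting are not given in the sources used here. Of 54532 identifiers, 54495 matched GENCODE vM21. The other 37, with 0.00318% of all counts, have no symbol here.

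Counts were analysed with edgeR 4.0.16 in R 4.3.3. filterByExpr (minimum count 10, minimum total count 15) left 16646 genes, libraries were scaled by TMM, and the quasi-likelihood model, with 1 mean for each group, used all 9 libraries. Adjusted p-values are Benjamini-Hochberg values over all genes tested, called under 0.05, and the SE was derived from the F statistic. CPM are TMM-scaled. Log2 CPM for correlations used a prior count of 2. The fit was tested on simulated data. Library totals were 16118813 to 21928965 counts, fold-change intervals come from the fit and include the spread between libraries, and the limit for 0 counts covers counting error only.

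Named genes were the members, other annotated PYHIN genes, the 3 nearest coding genes on each side, the 3 genes of smallest p in KO against WT of each list (1 of these is not reported here), and the 5 genes most like the family. Pycard, Il1b, Il18, Cgas, Sting1, Samhd1, Irf1, Irf9, C1qb, C1qc, Ifnb1, Ifna4 and Siglech were named after their values were seen. The members and lists were chosen with earlier results of these data known. The study gives 3 per group, without saying how libraries map to animals, so p-values measure the spread between libraries. The 17 alternatives changed scaling (DESeq2 1.42.0 size factors, upper quartile), filter, test, model or libraries. The 60-base promoter stretches came from the RefSeq table, and proteins were not used here.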

Additional observations from a re-analysis of the deposited data

How the results depend on the processing

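Aim2, Ifi205 and Ifi202b had the fewest counts of the members, and single libraries decided several calls. Members called in KO against WT numbered 5 of 313 genes, with 8 of 707 without a filter beyond 1 read, 8 of 1343 by edgeR's exact test, 8 of 726 by DESeq2's Wald test, 8 of 751 in a fit of these groups only and 3 of 198 with the Y-linked term. Leaving out 1 library gave 3 to 8 members and 153 to 774 genes. In KO_SN011 against KO, 0 members were called in any of the 17 alternatives. Genes called numbered 127 without the filter, 124 by the exact test, 183 by DESeq2's Wald test, and 0 to 519 when leaving out 1 library. In KO_SN011 against WT, 4 members of 213 genes were called, with 7 of 607 without the filter, 4 of 368 by the exact test, 7 of 806 by DESeq2's Wald test, 0 of 43 in a fit of these groups only and 7 of 656 with the Y-linked term. Leaving out 1 library gave 0 to 7 members and 38 to 376 genes. The no-filter setting tested 30892 genes, the fit of 2 groups used fewer samples, and the cause of the other shifts was not tested.

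In KO_SN011 against KO the direction turned for 4 members. With the Y-linked term Ifi203 was at 0.12, Ifi207 at 0.35 and Mndal at 0.12 on the log2 scale. Leaving out 1 library gave -0.24 to 0.09 for Ifi203, -0.71 to 0.09 for Ifi207, -0.45 to 0.06 for Mndal and -0.50 to 0.01 for Aim2. Of 459 values of single members under the alternatives, 383 kept direction and side of the threshold, 37 lost a call, 31 gained one and 8 turned.

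Replicate numbers are shared between groups, but were not taken to pair the samples in the main fit. Correlations of the deviations ran from -0.29 to 0.24 for same-numbered libraries and from -0.37 to 0.38 for the others. Between KO and KO_SN011 they were 0.20, 0.24 and 0.10 for same-numbered libraries and -0.22 to 0.09 for the others. These values do not decide whether the samples were paired. A replicate block called 5 members of 312 genes in KO against WT, 0 of 0 in KO_SN011 against KO and 3 of 231 in KO_SN011 against WT, where Ifi204 was lost (edgeR adjusted p 0.0505).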
